A study of Camelus dromedarius with 10 samples.

Results

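The CREB3 family comprises CREB3 and its relatives CREB3L1, CREB3L2, CREB3L3 and CREB3L4, transcription factors of the basic leucine zipper (bZIP) class. A gene ID was taken as a member where the gene tables supplied with the study paired it with 1 of these 5 symbols, either as the camel gene name or as the name of the human ortholog. This gave 4 members of 22444 gene IDs, and CREB3, which these tables pair with no ID, was not analysed here. RNA from the rostral supraoptic nucleus (SON) of 10 male dromedary camels, 4 to 5 years old, was sequenced after depletion of ribosomal RNA. Control camels (n = 5) drank water ad libitum, and water-deprived (WD) camels (n = 5) were fed but had no water for 20 days. Each library came from the SON of 1 side of 1 animal, and libraries are named here by condition and number, as CON2 or WD6. The question asked of the family was whether its transcripts differed between the hydrated and the dehydrated SON.

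CREB3 family proteins are made as proteins of the endoplasmic reticulum membrane, and their bZIP part reaches the nucleus after site-1 and site-2 proteases cut them in the Golgi. The magnocellular neurones of the SON make and secrete arginine vasopressin and oxytocin, so their secretory pathway carries a heavy load. In rats CREB3L1 is known as a factor that rises in these neurones with osmotic stimulation and activates the vasopressin gene, and CREB3L2 is known for driving genes of protein transport out of the endoplasmic reticulum. CREB3L3 is best known from liver, where it acts in acute phase and lipid genes, and CREB3L4 from prostate and testis.

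Libraries held between 1665098 (CON13) and 8126641 (WD9) counts, of which 27.7% to 76.1% fell on 5 gene IDs that each took over 1% of some library. That share was highest in CON13 (76.1%) and WD6 (73.8%) and at most 49.2% elsewhere. Depth here means the counts outside these 5 IDs. Outside these 5 IDs, CON13 kept 397495 counts and WD6 1106575, against 2078393 to 5872137 in the other 8 libraries, so 1 count stood for 1.20 CPM (CPM is a count relative to library size, scaled by the trimmed mean of M-values, TMM) in CON13, 0.475 CPM in WD6 and 0.0864 to 0.237 CPM elsewhere. AVP and OXT, the defining genes of the tissue, are paired with no ID in the tables used here. The 5 other markers of magnocellular or hypothalamic neurones summed to 502 to 699 CPM in control and 830 to 1253 CPM in WD libraries, with GAL at 16 counts in all. PDYN, which encodes prodynorphin, carried this rise (162 ± 46.4 CPM in control and 618 ± 127 CPM in WD libraries, SD, n = 5), while the 3 other tested markers had log2 fold changes of -0.58 (OTP), -0.04 (SIM1) and -0.03 (ARNT2), none of them called by edgeR. VIP, a marker of the neighbouring suprachiasmatic nucleus, lay between 0 and 2.39 CPM. In punches of tissue, fewer cells of a type and less RNA per cell cannot be told apart.

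No member of the family was called changed by WD. Of the 4 members, 3 passed the filter on low counts, and 0 of these 3 were past the threshold in edgeR's quasi-likelihood test (adjusted p at most 0.05 over 14432 genes), where 0.499% of all tested genes were called (0.270% higher and 0.229% lower in WD). At an unadjusted p under 0.05 the count was 0 members as well, beside 9.31% of all tested genes, and DESeq2's Wald test also called 0 members, beside 1.27% of the genes it tested. The levels of each member in every library follow.

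**Figure D1:**
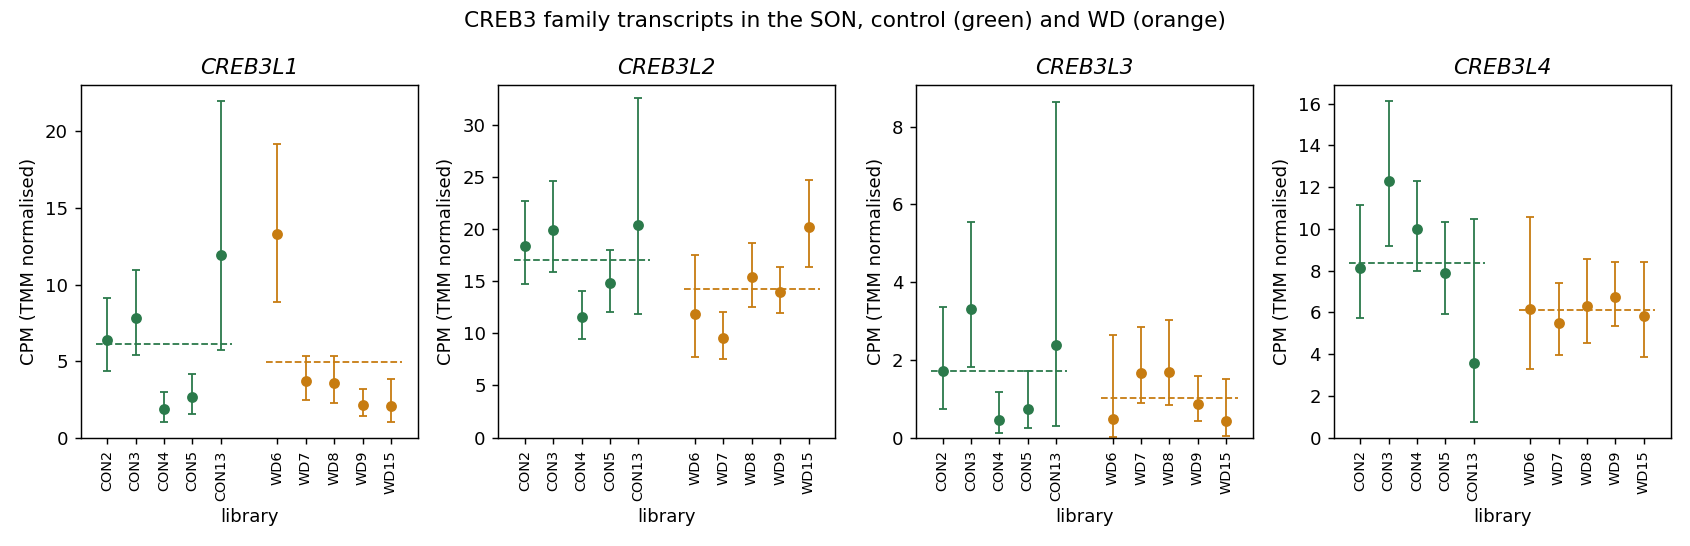
Level of CREB3L1, CREB3L2, CREB3L3 and CREB3L4 (TMM-normalised CPM, a separate axis for each gene) in each of the 5 control (green) and 5 WD (orange) libraries; bars are exact 95% Poisson intervals of the count and dashed lines are group means. The groups overlap for all 4 genes, CON13 and WD6 stand above the other libraries for CREB3L1, and the 5 WD libraries lie close together for CREB3L4.

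CREB3L1 (ENSCDRG00005011173), the vasopressin-linked member, was counted 222 times in all. In controls its level was 6.40 CPM in CON2, 7.81 in CON3, 1.84 in CON4, 2.64 in CON5 and 12.0 in CON13. In WD camels it was 13.3 CPM in WD6, 3.70 in WD7, 3.53 in WD8, 2.16 in WD9 and 2.08 in WD15. The groups overlapped over almost their whole range, with 1 high library in each. The lowest and the highest library, CON4 and WD6, lay 7.24-fold apart.

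The mean level of CREB3L1 was 6.13 ± 4.11 CPM (SD, n = 5) among controls and 4.95 ± 4.72 CPM (SD, n = 5) with WD. The log2 fold change of WD over control was -0.27 (standard error 0.576, adjusted p = 0.938, edgeR). Its 95% interval, -1.48 to 0.94, runs from 0.358-fold to 1.92-fold of the control level, so a moderate change in either direction was not detectable in these libraries. The biological coefficient of variation of CREB3L1 was 0.568, higher than in 96.2% of tested genes, whose median was 0.263. It is edgeR's measure of spread between libraries beyond counting error, and can include technical differences, as each animal gave 1 library.

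Both high values of CREB3L1 came from the libraries with the fewest usable counts. In CON13 the level rested on 10 counts, with an exact 95% Poisson interval of 5.73 to 22.0 CPM, and in WD6 on 28 counts, with an interval of 8.83 to 19.2 CPM; such intervals cover counting error only. The interval of WD6 lies above that of every other WD library, of which the highest, in WD7, ends at 5.31 CPM. Without WD6 the log2 fold change of CREB3L1 was -0.91 (adjusted p = 0.449, edgeR), and without CON13 it was -0.03. With both left out, an alternative chosen after seeing the data, it was -0.67 (adjusted p = 0.604, edgeR).

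Over the 10 libraries the log2 CPM of CREB3L1 fell with the log2 of the counts outside the 5 dominant IDs, with Pearson's r = -0.837 (permutation p = 0.00178, Benjamini-Hochberg adjusted 0.00712 over the 4 members) and Spearman's rho = -0.806 (permutation p = 0.00774, adjusted 0.0310). Without CON13 and WD6, the libraries farthest from the median depth, r was -0.690. Among controls the order was fully inverse (rho = -1), as it was for 4.82% of tested genes, and among WD libraries rho was -0.3. Of all tested genes, 3.05% had an r as low as that of CREB3L1, and their median r was 0.019. With depth group (the 5 libraries with the fewest usable counts against the other 5) as a covariate, the log2 fold change of CREB3L1 turned to 0.14 (95% interval -0.80 to 1.09, adjusted p = 0.946, edgeR).

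**Figure D2:**
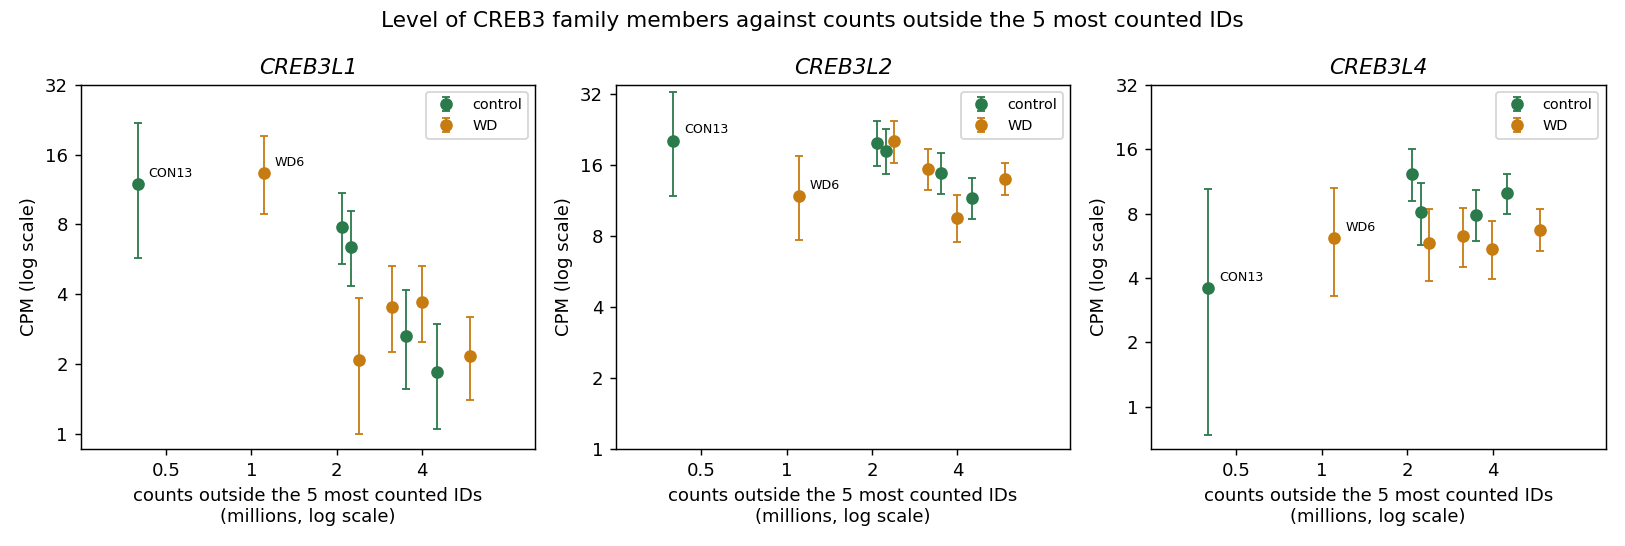
Level of CREB3L1, CREB3L2 and CREB3L4 (CPM, log scale) against the counts outside the 5 dominant gene IDs (log scale), 1 point per library with its exact 95% Poisson interval, control in green and WD in orange. CREB3L1 runs downwards from CON13 and WD6 to the deepest libraries (r = -0.837), while CREB3L4 is lowest in CON13 (r = 0.461, and -0.291 without CON13 and WD6).

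Marker genes of other cell types gave the following beside the high libraries. In WD6 the summed markers of oligodendrocytes (218 CPM), of astrocytes or radial glia (53.6 CPM) and of fibroblasts or mural cells (110.1 CPM) were each the highest among WD libraries, within the range of the controls (105 to 292, 39.8 to 55.1 and 103 to 126 CPM). The endothelial sum of WD6 (155.7 CPM) was the lowest among WD libraries, its microglial sum (254 CPM) lay inside their range, and its magnocellular or hypothalamic sum (1253 CPM) was the highest. In CON13 the fibroblast or mural sum (102.8 CPM) was the lowest among controls, VIP (2.39 CPM, from 2 counts) was the highest of all libraries, and the other sums lay inside the range of the controls. The part of tissue make-up in the CREB3L1 levels was not tested.

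CREB3L2 (ENSCDRG00005002405), the member tied to export from the endoplasmic reticulum, had 848 counts. Its level was 18.4 CPM in CON2, 19.9 in CON3, 11.6 in CON4, 14.8 in CON5 and 20.3 in CON13. In WD camels it was 11.9 CPM in WD6, 9.57 in WD7, 15.4 in WD8, 14.0 in WD9 and 20.2 in WD15. The WD library highest for CREB3L2, WD15, was the one lowest for CREB3L1, and the groups overlapped.

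The means of CREB3L2 were 17.0 ± 3.72 CPM (SD, n = 5) among controls and 14.2 ± 4.01 CPM (SD, n = 5) with WD. The log2 fold change was -0.22 (standard error 0.242, 95% interval -0.73 to 0.29, adjusted p = 0.848, edgeR), that is 0.859-fold with an interval of 0.604-fold to 1.22-fold. It stayed below 0 in all 21 alternatives, from -0.38 to -0.07, and was called in none of them. Its relation to depth was r = -0.494 (permutation p = 0.127, adjusted 0.225 over the 4 members) and rho = -0.636 (permutation p = 0.0531, adjusted 0.106), and r was -0.764 without CON13 and WD6. Among controls the order of CREB3L2 was also fully inverse to depth (rho = -1), and among WD libraries rho was -0.2. The biological coefficient of variation of CREB3L2 was 0.247, close to that of the median gene.

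CREB3L4 (ENSCDRG00005017685) had 437 counts and the largest fitted difference of the 3 tested members. In controls it was at 8.11 CPM in CON2, 12.3 in CON3, 9.98 in CON4, 7.91 in CON5 and 3.59 in CON13. In WD camels it was at 6.17 CPM in WD6, 5.48 in WD7, 6.30 in WD8, 6.74 in WD9 and 5.83 in WD15. All 5 WD libraries lay below 4 of the 5 controls, and CON13, which rested on 3 counts with an interval of 0.740 to 10.5 CPM, lay below all of them.

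The means of CREB3L4 were 8.38 ± 3.21 CPM (SD, n = 5) among controls and 6.11 ± 0.475 CPM (SD, n = 5) with WD. The log2 fold change was -0.53 (standard error 0.279, 95% interval -1.12 to 0.06), or 0.691-fold (0.460-fold to 1.04-fold), with an unadjusted p of 0.0729 and an adjusted p of 0.599 by edgeR. The estimate was below 0 in all 20 alternatives that gave one, from -0.66 to -0.40, and in none was it called. Without CON13 it was -0.65 (adjusted p = 0.474, edgeR), and without CON13 and WD6 it was -0.66 (95% interval -1.16 to -0.16, adjusted p = 0.274, edgeR). Once CON13 was set aside, after its value was seen, the groups did not overlap, which then held with WD lower for 1.78% of tested genes.

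The coefficient of variation of CREB3L4 was 38.3% among control and 7.79% among WD libraries. The control value includes CON13, the lowest control (3.59 CPM, from 3 counts). The close spacing of the WD libraries was tighter than their counting error, since the Poisson interval of each WD library held the levels of the other 4. For CREB3L4 the relation to depth was r = 0.461 (permutation p = 0.169, adjusted 0.225 over the 4 members) and rho = 0.188 (permutation p = 0.606), and r turned to -0.291 without CON13 and WD6.

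CREB3L3 (ENSCDRG00005004679), the liver-linked member, was near the limit of detection, with 70 counts in all and 1 to 14 in a library. It was at 1.71 CPM in CON2, 3.31 in CON3, 0.459 in CON4, 0.732 in CON5 and 2.39 in CON13, and in WD camels at 0.475 CPM in WD6, 1.66 in WD7, 1.69 in WD8, 0.864 in WD9 and 0.417 in WD15. The groups overlapped, and the value of CON13 stood on 2 counts. The means were 1.72 ± 1.18 CPM (SD, n = 5) and 1.02 ± 0.621 CPM (SD, n = 5) in control and WD camels.

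With all 10 libraries CREB3L3 did not pass the filter on low counts. On log2 CPM the groups differed by -0.58 (two-sided exact permutation p = 0.357), and in edgeR without the filter the log2 fold change was -0.56 (95% interval -2.16 to 1.04, adjusted p = 0.896). Its relation to depth was r = -0.421 (permutation p = 0.238), with rho = -0.9 among controls and 0.5 among WD libraries. A difference of the fitted size was not detectable in these libraries.

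CREB3L1 and CREB3L2 were also set against each other within each library, since a ratio of counts does not depend on how libraries are scaled. Gene lengths were not used, so the ratio says nothing of which gene was the more abundant and is compared between libraries only. The log2 ratio of CREB3L1 to CREB3L2 counts was -1.50 in CON2, -1.33 in CON3, -2.62 in CON4, -2.46 in CON5 and -0.74 in CON13. In WD camels it was 0.16 in WD6, -1.36 in WD7, -2.10 in WD8, -2.67 in WD9 and -3.22 in WD15.

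WD6 was the only library with more CREB3L1 than CREB3L2 counts (28 against 25). The mean log2 ratio was -1.73 ± 0.793 (SD, n = 5) among controls and -1.84 ± 1.31 (SD, n = 5) with WD, and the groups differed by -0.11 (two-sided exact permutation p = 0.897). The difference was smaller than the spread between libraries of a group, and it turned to 0.24 without WD15, 0.14 without CON13 and 0.10 without WD9. Without WD6 it was -0.60, and without CON13 and WD6 together it was -0.36. The lowest and the highest ratio both came from WD libraries.

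**Figure D3:**
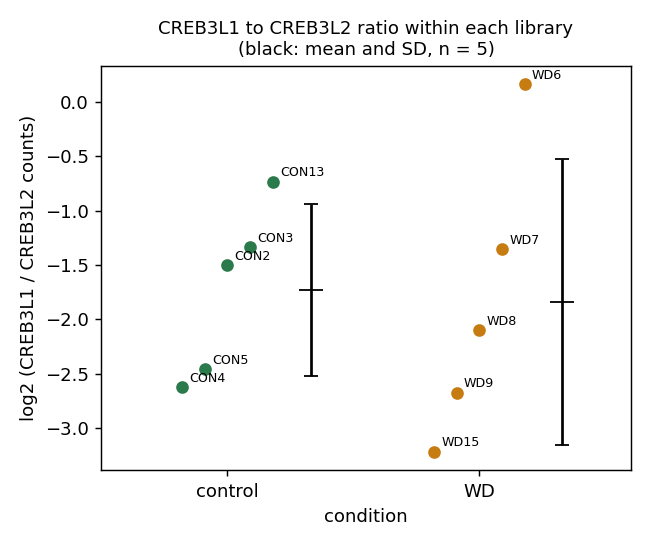
Log2 ratio of CREB3L1 to CREB3L2 counts in each library (0.5 added to each count), control in green and WD in orange, with the mean and SD of each group in black (n = 5). The controls lie between -2.62 and -0.74, the WD libraries between -3.22 and 0.16, past the controls at both ends.

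Correlations between the members across libraries were low. The log2 CPM values of CREB3L1 and CREB3L2 had r = 0.237 over the 10 libraries, those of CREB3L1 and CREB3L4 r = -0.253, and those of CREB3L2 and CREB3L4 r = -0.022. Without CON13 and WD6 the 3 values were 0.388, 0.412 and 0.292 (n = 8). These are descriptions across libraries that share depth and scaling.

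The genes whose pattern was most like that of each member were taken from 2266 tested genes with a symbol in the complete gene tables, by Pearson's r of log2 CPM over the 10 libraries. For CREB3L1 they were PNOC (r = 0.978), ADAM7 (0.951), ALOXE3 (0.951), NAALADL1 (0.948) and IL7R (0.947). These 5 genes had 89 to 219 counts, were highest in CON13 or, for ALOXE3, in WD6, and had an r with depth between -0.887 and -0.720. Without CON13 and WD6 their r with CREB3L1 lay between 0.886 and 0.963, and none was called changed by WD.

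For CREB3L2 the 5 most alike were DMPK (r = 0.915), ZNF618 (0.908), ZBTB17 (0.903), RIPK3 (0.826) and MAP3K3 (0.816), which had their highest level in CON3, CON13 or WD15. For CREB3L4 they were TET1 (0.921), ZNF317 (0.880), TAF1L (0.866), ZNF32 (0.865) and ZNF212 (0.863), each highest in CON3, as CREB3L4 was.

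The other membrane-bound factors, which are released from the membrane by cleavage too, were read beside the family with the site-1 protease. This list held 8 genes, of which 7 were tested and 0 were called in either direction by edgeR (0 at an unadjusted p under 0.05, and 0 by DESeq2). The shares of all genes tested were 0.499%, 9.31% and 1.27%. ATF6, the sensor of unfolded protein that the same proteases cut, had the largest log2 fold change of the list, 0.53 (standard error 0.292, adjusted p = 0.618, edgeR), at 21.1 ± 12.1 CPM in control and 32.8 ± 3.08 CPM in WD camels (SD, n = 5). MYRF, a factor of oligodendrocytes, had the smallest, -0.26 (adjusted p = 0.838, edgeR).

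MBTPS1, the site-1 protease, was at 59.5 ± 3.92 CPM in control and 60.4 ± 4.67 CPM in WD camels (SD, n = 5). Its log2 fold change of 0.02 had a 95% interval of -0.30 to 0.33. The median log2 fold change of the 7 genes was -0.09, beside 0.02 for all tested genes. MBTPS2, the site-2 protease, was not analysed here.

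**Figure D4:**
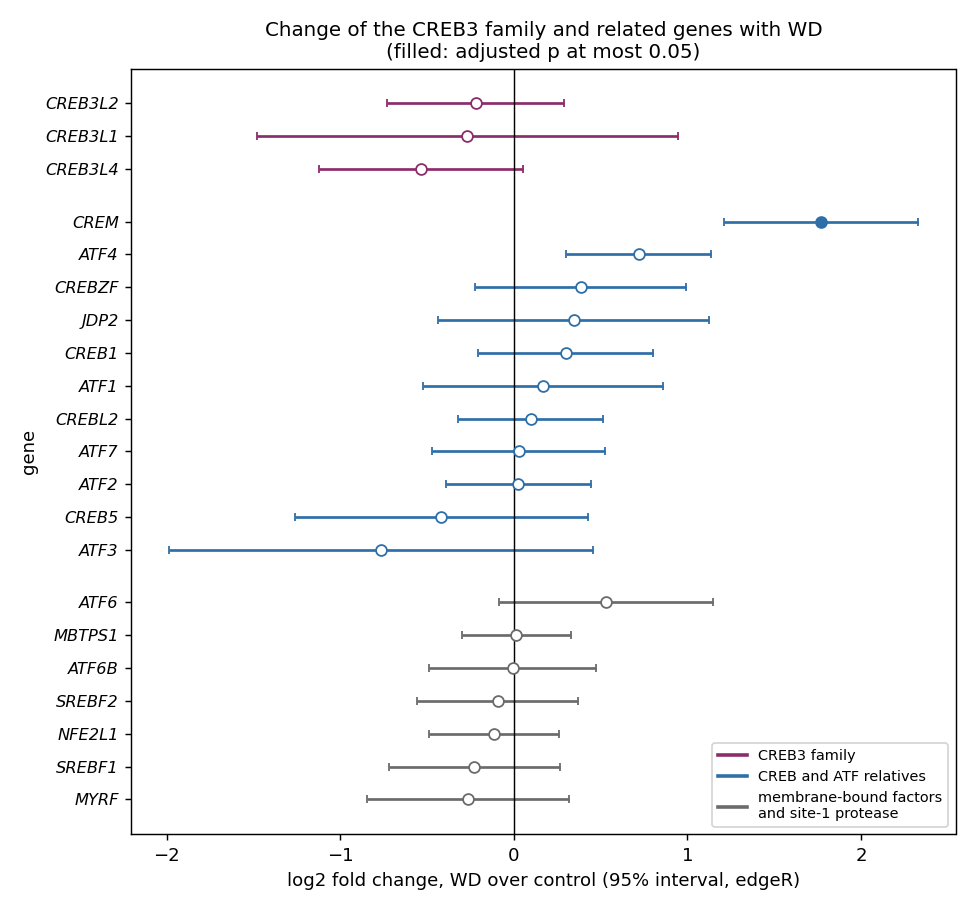
Log2 fold change of WD over control with its 95% interval (edgeR) for the 3 tested CREB3 family members (purple), 11 CREB and ATF relatives (blue) and 6 membrane-bound factors with the site-1 protease (grey); a filled point marks an adjusted p at most 0.05. CREM is the only filled point, and the intervals of CREB3L1, CREB3L2 and CREB3L4 all cross 0.

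Of the 12 CREB and ATF relatives, bZIP factors without a membrane anchor, 11 were tested. By edgeR 1 was called higher and 0 lower, beside 0.270% and 0.229% of all tested genes. The called gene was CREM (ENSCDRG00005016686), a modulator of cAMP-driven transcription that also gives rise to the repressor ICER. CREM was at 8.11 CPM in CON2, 6.39 in CON3, 5.85 in CON4, 6.73 in CON5 and 1.20 in CON13. In WD camels it was at 24.7 CPM in WD6, 22.4 in WD7, 15.1 in WD8, 25.7 in WD9 and 19.4 in WD15. Every WD library of CREM lay above every control, as WD and control libraries did in either direction for 2.62% of tested genes.

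The log2 fold change of CREM was 1.77 (standard error 0.266, adjusted p = 0.00313, edgeR), and it was called with each library left out. With libraries scaled by their totals alone it was not called (log2 fold change 1.88, adjusted p = 0.155, edgeR), and a minimum of 10 counts in every library removed it from the test. The value of CON13 rested on 1 count, and without CON13 the log2 fold change was 1.66. ATF4, an effector of the integrated stress response and the 1 other relative at an unadjusted p under 0.05 (named after its value was seen), had a log2 fold change of 0.72 (adjusted p = 0.172, edgeR). It was called by DESeq2 (adjusted p = 0.0445). ATF3, which is induced by stress in many cells, had the smallest value, -0.76 (standard error 0.581, adjusted p = 0.743, edgeR). The median of the 11 was 0.17, with 9 above and 2 below 0.

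Over 48 bZIP factors outside the family, which include the relatives above, 38 were tested. By edgeR 2 were called higher and 0 lower, beside 0.270% and 0.229% of all tested genes. The called factors were CREM and FOS, the immediate early gene. FOS had a log2 fold change of 1.48 (adjusted p = 0.00313, edgeR), which was 1.62 and not called with library totals alone (adjusted p = 0.221, edgeR). At an unadjusted p under 0.05 there were 7 higher and 1 lower of the 38, beside 9.31% of all tested genes in either direction. The smallest value of the list was that of DBP, a factor of the circadian clock, at 7.11 ± 1.68 CPM in control and 3.06 ± 0.547 CPM in WD camels (SD, n = 5), with a log2 fold change of -1.18 (adjusted p = 0.184, edgeR). DESeq2 called DBP lower (adjusted p = 0.0410). The median log2 fold change of the 38 was 0.32, with 29 above and 9 below 0.

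Markers of other cell types were read between the same groups. Of all tested genes, 9.31% were at an unadjusted p under 0.05 and 0.499% were called by edgeR. The summed microglial markers were at 152 to 223 CPM in control and 167 to 507 CPM in WD libraries, and all 5 markers had a log2 fold change above 0, 3 of them at an unadjusted p under 0.05 and none called by edgeR. The endothelial sum was at 135 to 208 CPM in control and 156 to 311 CPM in WD libraries, with 6 of 7 tested markers above 0, 2 at an unadjusted p under 0.05 and none called. The fibroblast or mural sum was at 103 to 126 CPM in control and 64.3 to 110.1 CPM in WD libraries, with 2 of 5 tested markers above and 3 below 0 and 2, both lower, at an unadjusted p under 0.05. Of these, COL1A1 was called (log2 fold change -1.04, adjusted p = 0.0239, edgeR) and HEYL was not (-1.16, adjusted p = 0.104, edgeR). None of the 6 oligodendrocyte and 4 astrocyte or radial glia markers was at an unadjusted p under 0.05. The part of these cell types in the levels of CREM, FOS and the CREB3 family was not tested.

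A chosen list of enzymes upstream of the CREB and CREM group held protein kinase A subunits and adenylyl cyclases, though not every cyclase. It had 13 tested genes, with 0 called by edgeR, 3 at an unadjusted p under 0.05 and 1 called by DESeq2. The shares of all genes tested were 0.499%, 9.31% and 1.27%. ADCY8, a calcium-stimulated adenylyl cyclase, had the largest log2 fold change, 0.71 (adjusted p = 0.102, edgeR), at 33.5 ± 6.26 CPM in control and 55.7 ± 6.52 CPM in WD camels (SD, n = 5), and was the gene DESeq2 called (adjusted p = 0.0113). PRKAR1B, a regulatory subunit of protein kinase A, had the smallest, -0.58 (adjusted p = 0.454, edgeR). The third gene at an unadjusted p under 0.05, named after its value was seen, was the catalytic subunit PRKACA at -0.38 (adjusted p = 0.524, edgeR). The median of the 13 was -0.20, with 3 above and 10 below 0.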

How the data were processed

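Trimmed reads were aligned by the authors with STAR (assembly Camdro2), and read pairs per gene were counted with featureCounts. They deposited these counts, whole numbers without normalization, for 22444 gene IDs in 10 libraries. The annotation release and strand setting are not given in the sources used here, so overlapping genes are uncertain. Their deposited normalized values, a signal made of counts divided by size factors, and their own comparisons (fold changes and p-values) were not used.

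Symbols came from the study's gene tables (4316 IDs). Members and gene lists were chosen with earlier results of these data known. Genes were filtered (filterByExpr), TMM-normalised and tested with edgeR 4.0.16 in R 4.3.3 (robust quasi-likelihood F test, Benjamini-Hochberg adjustment over 14432 genes), and DESeq2 1.42.0 was an alternative. The fit was tested on simulated data. Exact permutation tests used all splits of 5 against 5, and correlations 100000 resamples. Replicates were separate camels, and none were duplicate libraries (smallest chi-square per degree of freedom 3.73). The genes named were the members, called genes and extremes of each list, and the 5 most alike in pattern. No sequence is printed, as no sequence of this assembly was used here.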

Additional observations from a re-analysis of the deposited data

How the results depend on the processing

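The 21 alternatives changed the test, scaling, filter, dispersion or covariates, or left out libraries. No member of the CREB3 family and none of the membrane-bound factors was called in any of them. With each library left out, the log2 fold change ranged from -0.91 to -0.03 for CREB3L1, from -0.37 to -0.11 for CREB3L2 and from -0.65 to -0.40 for CREB3L4. The CREB3L1 estimate turned to 0.14 with depth group as covariate. The CREB3L1 to CREB3L2 difference ranged from -0.60 to 0.24 with a library left out, turning to 0.10 without WD9, 0.24 without WD15 and 0.14 without CON13; the cause was not tested.

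The CREB and ATF relatives called numbered 2 with DESeq2, with RNA integrity and with depth group as covariate, and 0 with library totals or a minimum of 10 counts in every library, which removed CREM. The bZIP factors called numbered 4 with DESeq2 and with depth group, 1 with the minimum of 10 counts and 0 with library totals, and cAMP enzymes 1 with DESeq2 and with depth group. Of all genes, 209 were called by DESeq2, 224 with depth group (122 higher), 10 with library totals (7 higher) and 40 (without CON3) to 102 (without WD6) with a library left out, against 72 (39 higher), and 42 without CON5. Library totals moved the median of all genes to 0.16 on the log2 scale, and CREB3L4 then stood at -0.43. CREB3L3 had a value only without the filter, with DESeq2 (-0.58) and without CON13 and WD6 (-0.33), and CREB3L4 failed the minimum of 10 counts. The fit without CON13 and WD6 kept the filter, which CREB3L3 passed there. In the other edgeR fits with a filter CREB3L3 did not pass, so they gave no value for it. No paired analysis was possible because the control and WD libraries came from separate camels.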
